A study of Arabidopsis thaliana with 18 samples.

Results

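In light-grown Arabidopsis cell suspension cultures (ACSC), 237 transcripts were lower after RB (Rose Bengal, a dye that makes singlet oxygen in light) and were not lowered to the same extent by H2O2 (HP). They were chosen by the values of 9 arrays. The mean of the 3 RB arrays lay at least 0.8 below the mean of the 3 control arrays on the log2 scale, every RB array lay below every control array, and the HP mean lay less than 0.4 below the control mean. Genes had to be named nuclear genes, and families of wall proteins such as the XTH, EXPA, CSL, FLA, TBL and SCPL genes were left out by symbol, which removed 14 of 251 genes. The 237 genes are 1.68% of the 14072 named nuclear genes with a probe set. Names came from the array's annotation for 123 of them. The names of the other 114 came from the study's own tables, which name only probe sets that the study called, and among the 13217 genes named by the array's annotation 0.931% were members. Because these values selected the genes, their levels under RB and HP are given as a description without a test. The MV and IC arrays and their own control played no part in the selection and were tested.

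All 18 arrays (Affymetrix ATH1) held total RNA of wild-type Columbia cells, 3 biological replicates in each of 6 groups. RB, MV and IC (Indigo Carmine) were given at 0.5 µM and HP at 500 µM for 30 min. The labels call MV Methyl Violet, whereas the study's text names another violet dye. The labels also mention both high light and darkness without saying which array had which, so the light treatment is taken from the study's text. That text places the transcript responses to RB and HP in cultures treated under low to medium light. Control arrays 1 to 3 for RB and HP and control arrays 1 to 3 for MV and IC came from untreated cultures, and the titles tie each control array to the treated arrays that carry its number. Values are log2 signals as deposited, so a difference of 1 is a 2-fold difference. In bulk cultures of this kind, fewer cells of a type and less RNA per cell cannot be told apart. Of 8 light-grown cell markers, the 1 with a named probe set, RCA (rubisco activase), read between 10.24 and 11.56 on all arrays.

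Plant cells build their walls largely outside the plasma membrane. Cellulose is spun out by synthase complexes in the plasma membrane, whereas pectin and hemicellulose are made in the Golgi and secreted together with the enzymes that trim them. Secreted and membrane proteins enter the endoplasmic reticulum (ER), are folded and N-glycosylated there, and pass through the Golgi. In developing xylem a second wall is laid down and lignified before the cell dies and its content is digested by proteases and nucleases.

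Most members were placed by hand in groups of the wall, the membranes or the secretory route. By annotation, 29 members were pumps and transporters, 23 wall-modifying proteins, 22 wall oxidoreductases, 18 proteases and nucleases, 17 proteins of ER entry, folding and N-glycan processing, 14 enzymes of lipid and sterol metabolism, 13 receptor-like kinases and receptor proteins, 12 Golgi and endosomal trafficking proteins, 12 wall glycoproteins and secreted proteins, 11 proteins of cellulose and callose synthesis and COBRA proteins, and 10 enzymes of matrix polysaccharide synthesis. The other 56 were of other or unknown function. These groups were assigned by hand after the values were known, so their sizes carry no test. They were not counted over all named genes, so the make-up is not read as particular to the members. The make-up also differed by naming source. The array's annotation named 43 of the 56 members of other or unknown function, but only 1 of the 11 in the group of cellulose, callose and COBRA proteins.

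The members were abundant transcripts with a signal about 1.98-fold lower under RB. Their median level was 8.23, 8.31 and 8.18 on control arrays 1, 2 and 3, and 7.29, 7.26 and 7.09 on RB arrays 1, 2 and 3. On the HP arrays it was 8.05, 8.27 and 8.16. The RB arrays thus lay below both other groups, and the HP arrays overlapped the control arrays. The median of all probe sets stayed between 4.91 and 5.14 on these arrays. The difference between RB and control ranged from -1.91 to -0.80 with a median of -0.98, or 1.74-fold to 3.75-fold lower. It was at or under -1.5 in 8 members and at or under -1 in 110. Arrays of the same number gave a median of -0.91, -1.12 and -1.08. Each of the 237 members was lower in RB in all 3 of these pairs, which the rule on overlap fixed in advance.

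**Figure D1:**
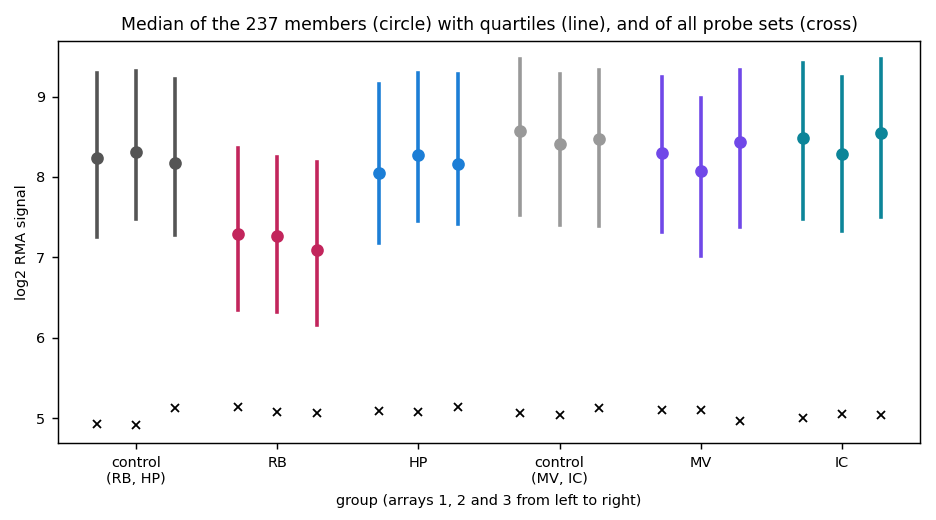
Median log2 signal of the 237 members on each of the 18 arrays (circles, with lines from the lower to the upper quartile) and of all probe sets (crosses), by group. The RB medians of 7.09 to 7.29 lie below all other arrays, whose medians lie between 8.05 and 8.58.

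Under HP the same members lay near their control, and the limit of -0.4 bounded the lower side in advance. The difference ranged from -0.39 to 0.99 with a median of -0.06, and it was within 0.2 of the control in 166 members. It was below 0 in 148 and above 0 in 89. Over the 3388 probe sets within the members' quartiles of level in the MV and IC control, the HP median was 0.08. Of these probe sets, 1322 were below 0 and 2066 above. The members thus lay slightly lower under HP than probe sets of similar level, and this difference was not tested. No member was called under HP by limma at an adjusted p under 0.05, where 0.185% of all probe sets were called lower and 0.629% higher. With the replicate block 1 member, ABCG34, was called higher, beside 1.77% of all probe sets. All HP arrays lay below all control arrays in 7 members (AT5G04270, AT1G32090, GMII, AT5G11560, CESA2, AT2G17240 and XEG113), beside 8.9% of all probe sets. They lay above in 5 (STT3A, AT5G11720, AT3G52640, IMK2 and HA1), beside 6.01% of all probe sets. The rule that selected the members used these arrays, so nothing is read from those counts. For the same reason the calls under RB only describe the set. Without the pairing 154 of 237 members were called lower, beside 1.52% of all probe sets, and 231 were called with the replicate block, beside 3.69%.

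The thresholds cut through a continuous range. PMEPCRF, AT5G13980 and AT4G22050 lay just inside the RB threshold with differences of -0.80, -0.80 and -0.81. GTR1, XYL1 and AT1G54280 lay just outside, each at -0.80 after rounding. AT1G76020, AT1G27930 and DGK1 were just inside the HP limit at -0.39, -0.38 and -0.38, and AT5G19590, AT3G51440 and AT3G47670 just outside at -0.40, -0.40 and -0.41. The highest RB array of UMAMIT3, AT2G38010 and AT3G06170 was less than 0.04 below the lowest control array, and that of RALF1, HA4 and AT5G44400 was about 0.01 above it. A further 67 genes met both limits on the means and failed only because arrays overlapped. Another 41 met the RB limits and were lower by 0.4 or more under HP too, with a median of -0.97 under RB and -0.50 under HP.

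**Figure D2:**
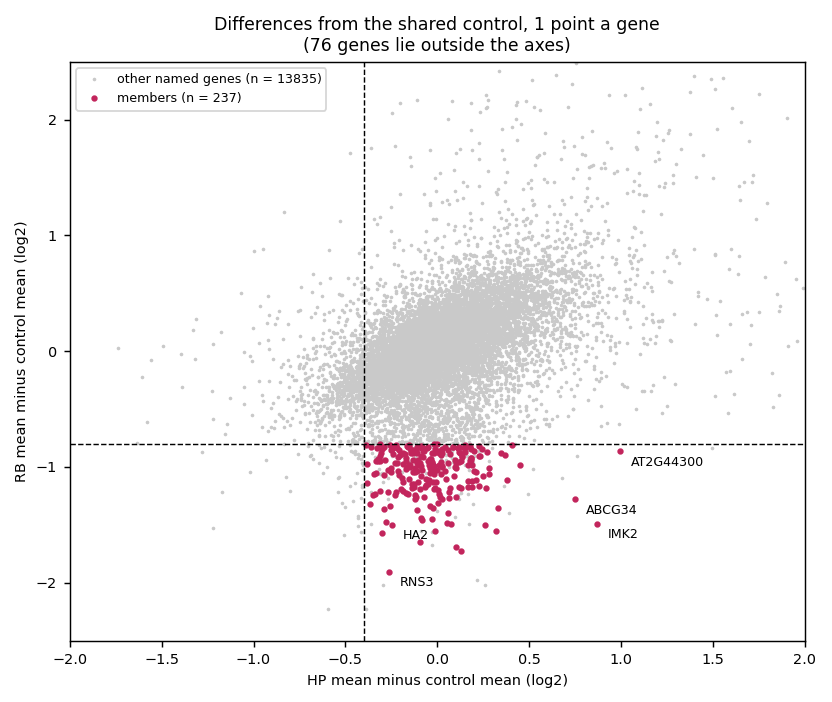
Difference from the shared control for each named gene, HP on the x axis and RB on the y axis, both log2, with the 237 members in red and 13835 other named genes in grey; dashed lines mark the limits of -0.8 and -0.4. The members fill the corner below the RB limit and right of the HP limit, and IMK2, ABCG34 and AT2G44300 stand to the right with HP differences of 0.87, 0.75 and 0.99.

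Of the 12 members with the largest difference under RB, RNS3, XCP2, IRX12 and CESA4 are genes of xylem maturation and secondary walls. Without the pairing limma called none of these genes lower, with adjusted p of 0.22, 0.30, 0.33 and 0.11. With the replicate block each was called, on the values that chose them. RNS3, a secreted ribonuclease, read 9.29, 8.16 and 8.88 on control arrays 1 to 3, 7.67, 6.74 and 6.20 under RB, and 8.91, 8.49 and 8.15 under HP. Its RB mean was 3.75-fold lower than that of the control. XCP2, a cysteine protease of the xylem vacuole, read 9.24, 8.64 and 8.10 in the control, 7.90, 7.52 and 5.50 under RB, and 9.26, 9.13 and 7.88 under HP. It was 3.22-fold lower under RB, and RB array 3 stood far below RB arrays 1 and 2. MC9, a metacaspase that acts in the clearance of dying xylem cells, read 7.01, 6.50 and 5.78 in the control and 5.70, 4.96 and 4.32 under RB, 2.71-fold lower. In all 3 genes the lowest RB value was that of array 3, and in XCP2 and MC9 control array 3 was also the lowest control.

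CESA4, a cellulose synthase of secondary walls, read 7.44, 7.70 and 6.88 in the control, 6.51, 6.001 and 5.05 under RB, and 7.64, 7.79 and 6.74 under HP. IRX12, a laccase that polymerizes lignin, read 7.25, 7.18 and 6.23 in the control, 5.92, 5.88 and 4.34 under RB, and 7.42, 7.52 and 6.49 under HP. They were 2.80-fold and 2.83-fold lower under RB, with no overlap of RB and control arrays, as the rule required. PARVUS and PGSIP3, glycosyltransferases of xylan synthesis, were 2.25-fold and 1.98-fold lower. DMP2, a membrane protein of the DMP family, followed the same arrays, with 9.29, 8.33 and 7.97 in the control and 7.65, 7.30 and 5.70 under RB, 3.13-fold lower.

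Several related genes differed as much and missed the set because control array 3 was low as well. XCP1, the partner of XCP2, differed by -1.32, the laccases LAC11 and LAC17 by -1.49 and -1.23, the secondary wall cellulose synthase IRX1 by -1.28, and CTL2, a chitinase-like protein of secondary walls, by -1.24. LAC11 for example read 6.94, 6.64 and 4.96 in the control and 5.21, 4.97 and 3.89 under RB, so that RB array 1 was higher than control array 3. IRX3, another such synthase, differed by -1.16 and also failed the HP limit, at -0.41. Of 12 genes of xylem cell death and its regulators, 6 had a named probe set, 3 of which were members. All 6 owe their names to the study's tables of called probe sets, so calls among them are not read as a test.

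The primary wall was represented by the cellulose synthases CESA1, CESA5, CESA2 and CESA6. CESA1, the core subunit of the primary wall complex, read 7.19, 7.23 and 6.55 in the control, 5.89, 5.45 and 5.43 under RB, and 6.93, 7.31 and 6.90 under HP, 2.64-fold lower under RB. CESA5, CESA2 and CESA6 were 2.398-fold, 1.92-fold and 1.89-fold lower. CESA2 is the 1 cellulose synthase of the set whose HP arrays, at 8.95, 9.11 and 8.98, also lay below all of its controls, at 9.30, 9.32 and 9.28. COB (COBRA, a glycosylphosphatidylinositol-anchored protein that orients cellulose microfibrils) and POM1, a chitinase-like protein needed for cellulose deposition, were 2.06-fold and 1.98-fold lower. GSL8 and GSL10, callose synthases, were 2.17-fold and 2.26-fold lower. Of 16 genes listed for cellulose synthesis, 13 had a named probe set and 7 were members. Only 1 of the 13 is named by the array's annotation, and the others were named through the tables of called probe sets. Calls in this list were therefore not read as a test.

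Among enzymes of matrix polysaccharides, XEG113, an arabinosyltransferase of extensins, read 6.55, 6.47 and 6.64 in the control and 5.65, 5.18 and 5.30 under RB, 2.27-fold lower. GONST4, a nucleotide sugar transporter, and QUA1 and QUA3, which act in pectin synthesis, were 2.11-fold, 1.802-fold and 1.95-fold lower. The 10 members of this group differed from control by -1.18 to -0.85. The differences of this group under HP were centred on 0.03.

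Wall-modifying proteins spanned pectin, glucan and galactan enzymes. AT1G67750, a pectate lyase, was 2.59-fold lower under RB. The pectin methylesterase PME3 read 9.81, 10.32 and 9.78 in the control, 8.84, 8.63 and 8.66 under RB, and 9.77, 10.33 and 10.12 under HP, 2.396-fold lower under RB. AT3G07320 and AT5G55180, glycosyl hydrolases of family 17, were 2.56-fold and 2.55-fold lower, and the beta-galactosidases BGAL3 and BGAL1 were 2.16-fold and 1.99-fold lower. The polygalacturonase inhibitors PGIP2 and PGIP1, which block pectin-degrading enzymes of pathogens, were 2.32-fold and 2.07-fold lower. In all, 16 members belonged to glycosyl hydrolase families, with differences from -1.36 to -0.80, and 4 to the pectin methylesterases. Of the wall glycoproteins, the arabinogalactan proteins AGP31 and AGP17 were 2.33-fold and 1.99-fold lower. P4H2, a prolyl hydroxylase that prepares such proteins for glycosylation, was 2.01-fold lower.

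The wall oxidoreductases held the second lowest member. AT5G44380, of the FAD-binding berberine family, read 9.29, 8.19 and 8.63 in the control, 8.02, 6.28 and 6.64 under RB, and 9.25, 8.69 and 8.57 under HP, 3.30-fold lower under RB. Class III peroxidases, which use H2O2 to crosslink or loosen the wall, were 6 members. AT5G17820, one of these, read 7.50, 7.61 and 7.26 in the control, 6.08, 5.85 and 5.78 under RB, and 7.34, 7.89 and 7.10 under HP, 2.94-fold lower under RB. AT5G06730, AT5G64120 and PRX52 were 2.28-fold, 2.06-fold and 2.03-fold lower. A further 6 members were SKU5-similar proteins, relatives of multicopper oxidases. Of these, sks9 read 7.40, 7.30 and 7.80 in the control and 6.19, 5.70 and 5.95 under RB, 2.94-fold lower, and sks17 was 2.77-fold lower. The germin-like proteins GLP9 and GLP5 were 2.14-fold and 1.84-fold lower.

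**Figure D3:**
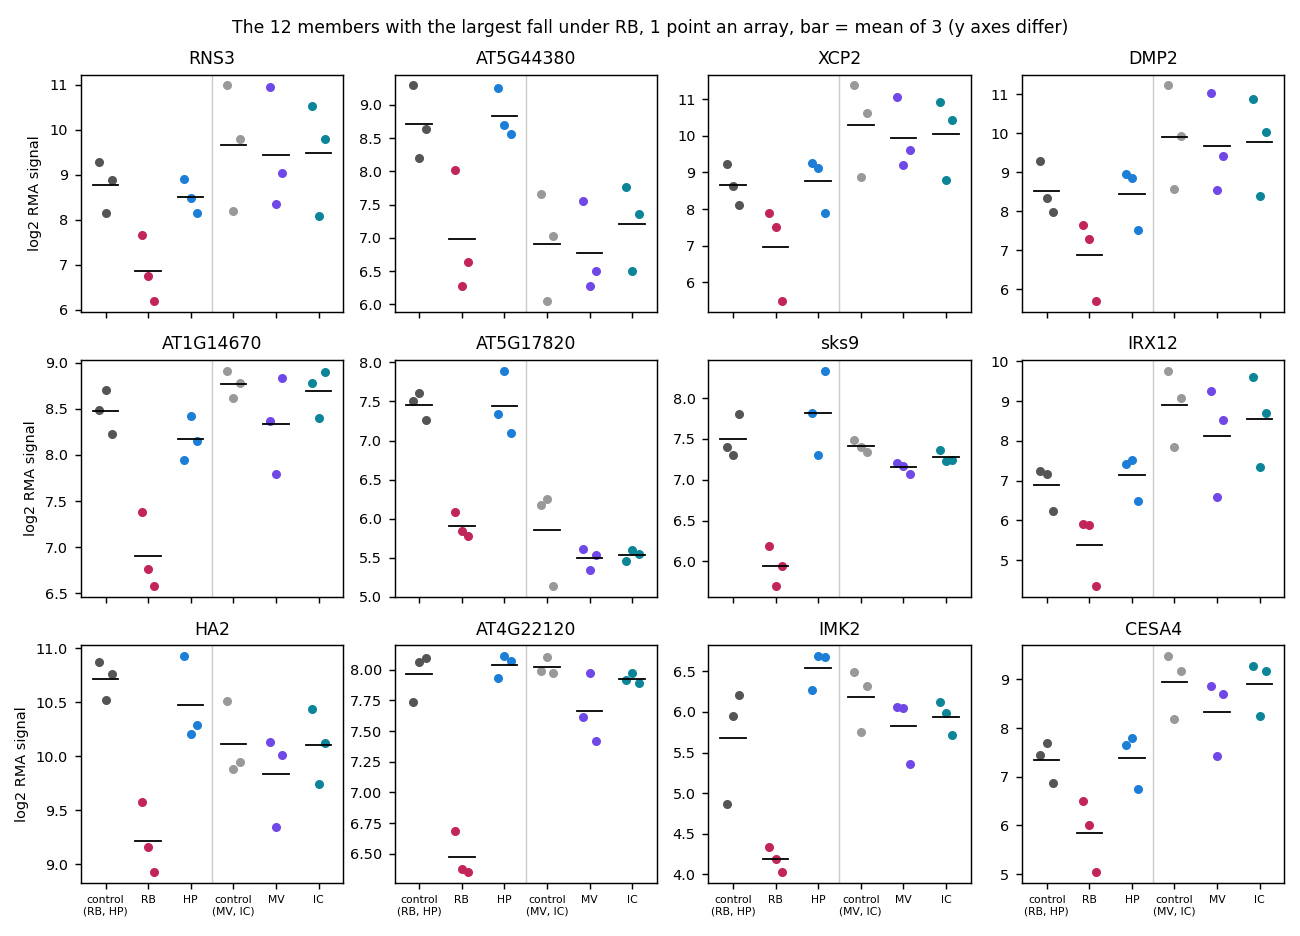
Log2 signal of the 12 members with the largest difference under RB on each of the 18 arrays, 3 points a group with a bar at their mean; y axes differ between panels. In each panel the RB points lie below the control points on the left, as the rule required. RNS3, AT5G44380, XCP2, DMP2, AT5G17820, IRX12 and CESA4 span more than 1 over the control arrays for MV and IC on the right.

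The members held 17 genes of ER entry, folding and N-glycan processing. CNX1 (calnexin, a lectin chaperone of the ER membrane) read 10.36, 10.53 and 10.38 in the control, 8.98, 9.33 and 9.02 under RB, and 10.18, 10.59 and 10.51 under HP, 2.48-fold lower under RB. The protein disulfide isomerases PDIL1-1 and PDIL1-2 were 2.27-fold and 2.26-fold lower. RSW3, a glucosidase subunit of N-glycan trimming, HAP6 (ribophorin II) and STT3A, subunits of the oligosaccharyltransferase, and ATERDJ2A, a translocon component, were 2.03-fold, 2.01-fold, 1.84-fold and 1.88-fold lower. EBS5 and EBS3, which act in ER-associated degradation, were 1.98-fold and 1.82-fold lower. Differences in this group ran from -1.31 to -0.82 under RB and from -0.36 to 0.34 under HP.

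Not every gene of this route was lower. Of 19 genes listed for ER translocation and glycosylation, 16 had a named probe set and 7 were members. AT3G20920, AT1G11560, ATERDJ2B and AT1G78720 lay at 0.02, 0.02, -0.10 and -0.10 under RB. AT3G20920 read 7.92, 7.82 and 8.17 in the control. AT1G11560, ATERDJ2B and AT1G78720 read between 2.97 and 4.17 there, near the lowest signals, where a fall could hardly show. Of the 11 genes that the array's annotation names, limma called 5 lower without the block, beside 1.52% of all probe sets, and 6 with the replicate block, beside 3.69%. The same RB arrays chose the members among them, so these counts only describe the list. Of 19 ER chaperones 9 had a named probe set, 3 of them by the array's annotation, and 4 were members. The 3 factors of the ER stress response with a named probe set, BZIP17, BZIP28 and BZIP60, differed by -0.73, -0.13 and 0.18 and were not called in either fit.

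Golgi trafficking was dominated by the nonaspanins, also named endomembrane proteins 70, which span the Golgi membrane. AT1G14670 read 8.49, 8.70 and 8.23 in the control, 7.38, 6.76 and 6.58 under RB, and 7.94, 8.42 and 8.15 under HP, 2.96-fold lower under RB. AT2G01970 read 10.75, 10.75 and 10.34 in the control and 9.19, 9.38 and 8.90 under RB, 2.74-fold lower. AT2G24170 and EMP1 were 2.502-fold and 2.42-fold lower. All 12 listed nonaspanins had a named probe set, and 8 were members. AT5G35160 differed from its control by -0.01, but it read only 3.26, 3.54 and 3.39 there, where a fall could hardly show. Of the 8 that the array's annotation names, limma called 5 lower without the block, beside 1.52% of all probe sets, and 6 with it, beside 3.69%, again on the values that chose the members.

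Pumps and transporters were the largest group. HA2, a proton pump of the plasma membrane, read 10.87, 10.52 and 10.77 in the control, 9.57, 9.16 and 8.93 under RB, and 10.93, 10.20 and 10.29 under HP, 2.83-fold lower under RB. HA1, the other main proton pump, read 10.31, 10.36 and 10.38 in the control and 9.83, 9.04 and 8.96 under RB, 2.11-fold lower, and all of its HP arrays, at 10.54, 10.70 and 10.57, lay above the control. The pyrophosphatases VP2 and AVP1, which pump protons into Golgi and vacuole, were 2.37-fold and 1.84-fold lower. AVP1 was among the most abundant members, with 12.55, 12.65 and 12.16 in the control and 11.45, 11.65 and 11.62 under RB. The calcium pumps ACA8, ECA3, ACA10 and ACA4 were 2.23-fold, 2.08-fold, 1.95-fold and 1.79-fold lower.

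Further pumps with a named probe set were not members. HA4 and HA11, of the plasma membrane, differed by -0.98 and -0.63 under RB, and VHA-A3 and VHA-A1, of vacuole and endosomes, by -0.63 and -0.57. The calcium pumps ECA2 and ACA11 differed by -0.96 and -0.62, and AT3G22910 in the other direction by 2.15. The listed proton pumps of the plasma membrane and calcium pumps were all named through the study's tables of called probe sets. Their calls are therefore not read as a test. AT3G22910 read 6.42, 5.03 and 6.11 in the control and 8.97, 7.25 and 7.79 under RB.

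PIN3, an auxin efflux carrier, read 8.44, 9.62 and 9.07 in the control, 7.29, 8.19 and 7.95 under RB, and 8.21, 9.30 and 9.15 under HP, 2.35-fold lower under RB. The tonoplast sugar transporters TMT1 and TMT2 were 2.36-fold and 1.78-fold lower, and PHT1;3, a phosphate transporter, 2.37-fold lower. ABC transporters were represented by ABCG34, ABCC4 and PEN3, which carries defence compounds out of the cell, at 2.43-fold, 2.39-fold and 2.33-fold lower. PDR2, a pump of the ER that acts in the root response to phosphate starvation, was 1.84-fold lower. Outside the set, the tonoplast sugar transporter TMT3 differed by 0.09 under RB, from a low level of 3.83, 4.15 and 3.79 in the control.

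Among receptors, 10 members were leucine-rich repeat proteins, with differences from -1.49 to -0.82. TMK1, a kinase of auxin signalling at the cell surface, read 8.38, 9.14 and 9.13 in the control and 7.63, 7.85 and 7.58 under RB, 2.29-fold lower. SRF7 and BAM1, a receptor of CLE peptides, were 2.099-fold and 1.84-fold lower. LYM1 and LYM3, which bind bacterial peptidoglycan, were 1.95-fold and 1.98-fold lower, and LLG1, a chaperone of receptor kinases, 1.84-fold lower. Outside the receptors, AT4G22120, of the ERD family of membrane proteins and grouped under other or unknown function, was 2.81-fold lower.

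Lipid genes included ADS2, a fatty acid desaturase, which read 10.37, 10.47 and 10.44 in the control, 9.45, 9.31 and 9.13 under RB and 10.15, 10.20 and 10.38 under HP, 2.18-fold lower under RB. KCS20, which elongates very long chain fatty acids, PDAT, which makes triacylglycerol, XF1 (squalene epoxidase) and FAH1, a sphingolipid fatty acid hydroxylase, were 2.28-fold, 2.15-fold, 1.99-fold and 1.98-fold lower. Among proteases, 9 members were aspartyl proteases and 3 subtilases, with AT2G39710, NANA and AT3G54400 at 2.53-fold, 2.39-fold and 2.29-fold lower and AT1G30600 at 2.36-fold lower. The cysteine proteases RD21B and RD21A were 2.04-fold and 1.86-fold lower.

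A few members were higher under HP than in the control while lower under RB. AT2G44300 read 8.92, 7.82 and 7.80 in the control, 7.59, 7.13 and 7.23 under RB, and 10.02, 8.40 and 9.10 under HP. IMK2, a receptor kinase of meristems, read 4.87, 5.95 and 6.21 in the control, 4.34, 4.19 and 4.03 under RB, and 6.27, 6.69 and 6.67 under HP. ABCG34, an ABC transporter of the plasma membrane, read 7.65, 6.99 and 7.52 in the control, 6.68, 5.44 and 6.20 under RB, and 8.60, 7.28 and 8.53 under HP. The HP arrays lay above all control arrays only in IMK2 of these 3. Their HP differences were 0.99, 0.87 and 0.75, and 5 members in all were higher by 0.4 or more.

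**Figure D4:**
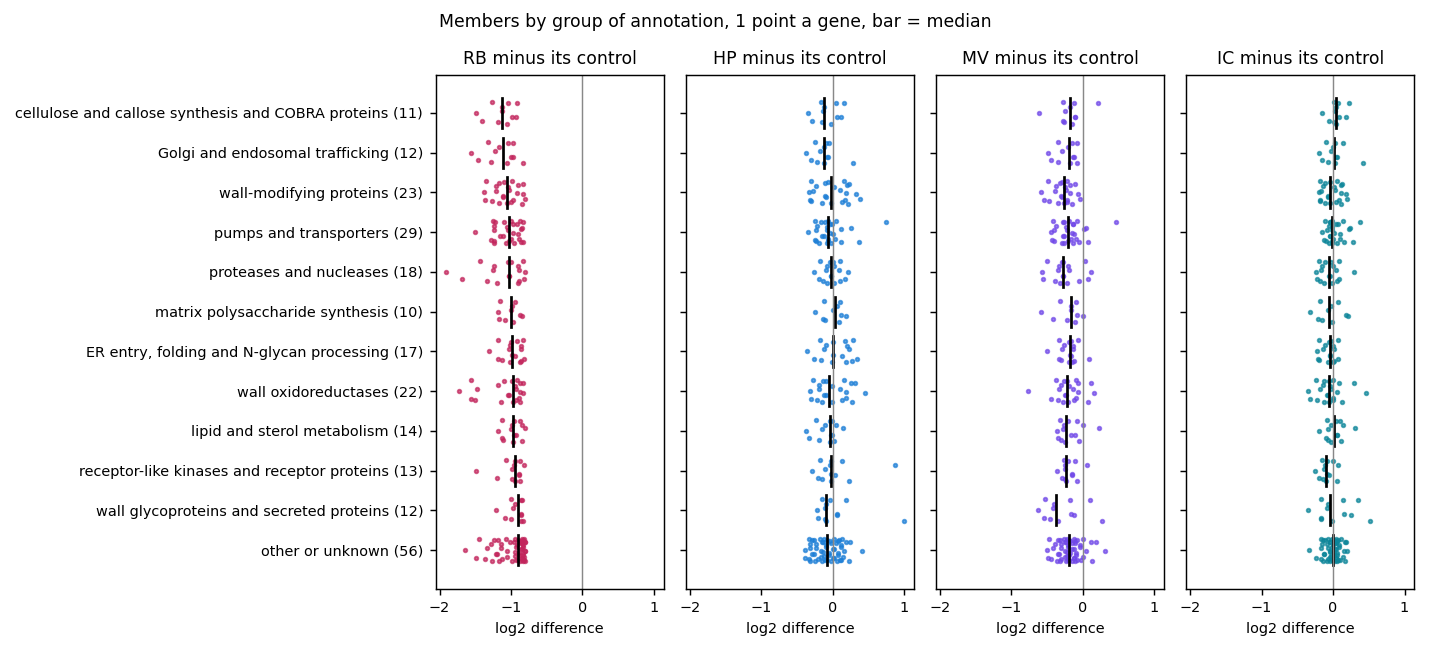
Log2 difference from the matching control of each member under RB, HP, MV and IC (x axis), 1 point a gene, by annotation group (number of members in brackets) with a bar at the group median. Group medians lie between -1.12 and -0.90 under RB, between -0.12 and 0.03 under HP, between -0.37 and -0.17 under MV and between -0.10 and 0.04 under IC.

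MV and IC at the dose of RB gave an independent look at the same genes, since their arrays and their control were not used to choose them. The members were slightly lower under MV and centred on the control under IC. Their median level was 8.58, 8.41 and 8.47 on control arrays 1, 2 and 3 of this set, 8.30, 8.07 and 8.44 under MV, and 8.49, 8.28 and 8.55 under IC. The MV and control arrays overlapped. The difference between MV and control had a median of -0.22 and ranged from -0.77 to 0.46. It was below 0 in 213 of 237 members, beside 47.9% of all probe sets, while the median over all probe sets was 0.01. Over the 3388 probe sets within the members' quartiles of level, the median was -0.10. Of these, 2363 were below 0. Each annotation group had most of its members below 0 under MV.

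No member was called under MV in either direction at an adjusted p under 0.05 by limma, and neither was any other probe set (0% lower and 0% higher). The lowest adjusted p of a member was 0.9997. At an unadjusted p under 0.05, 12 members were lower, beside 1.46% of all probe sets, and 1 was higher, beside 1.87%. With the replicate block 40 members were lower at that level, beside 3.43%, and again none passed the adjustment. All MV arrays lay below all control arrays in 25 members, beside 4.56% of all probe sets, and above in 1, beside 6.33%. The shift was not seen in every pair of arrays. MV minus control of the same number had a median of -0.29, -0.36 and 0.00 for arrays 1, 2 and 3, and the overall median was -0.13 without MV array 2 and -0.30 without MV array 3.

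The 1 member higher under MV at an unadjusted p under 0.05 by limma was SAG29, a sugar transporter of the SWEET family. It read 4.28, 4.43 and 4.40 in the control, 4.67, 4.92 and 4.90 under MV, and 4.41, 4.97 and 4.56 under IC. The MV arrays lay above the control arrays, by 0.46 (95% interval 0.12 to 0.80, unadjusted p = 0.011 and adjusted p = 0.9997 by limma). AT4G22120 was lower by a difference of -0.35 (-0.66 to -0.04) and ADS2 by -0.28 (-0.52 to -0.03), both with an adjusted p of 0.9997 by limma. ADS2 read 9.96, 9.83 and 9.86 in the control and 9.70, 9.53 and 9.59 under MV, without overlap. The other 10 with a low unadjusted p were AT5G25100, AT5G11720, AT3G61820, BGAL3, TET7, HAP6, AT2G05320, AT2G25310, AT1G04680 and XEG113.

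Under IC the members lay close to their control. The difference from control had a median of -0.02 and ranged from -0.36 to 0.51, and it was below 0 in 139 members, beside 50.2% of all probe sets and 2122 of the 3388 probe sets within the members' quartiles of level. No member and no other probe set was called in either direction (0% lower and 0% higher). At an unadjusted p under 0.05, 1 member was lower, beside 0.519% of all probe sets, and 0 were higher, beside 1.13%. All IC arrays lay below all control arrays in 2 members, beside 3.31%, and above in 2 (AT4G22610 and AT1G61667), beside 5.87%. MLP-300B, a myrosinase-binding protein, was the member lower by its unadjusted p, at 3.97, 4.09 and 3.87 in the control and 3.49, 3.86 and 3.56 under IC, a difference of -0.34 (95% interval -0.62 to -0.06, adjusted p = 1.00 by limma). AT4G22610, of the lipid-transfer protein family, read 3.95, 3.90 and 3.40 in the control and 4.79, 4.002 and 3.99 under IC, a difference of 0.51 with an interval from -0.04 to 1.06.

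MV and IC, dyes of different structure at the same dose and time, were compared directly as 1 pair of compounds. MV minus IC had a median of -0.19 over the members and was below 0 in 215 of them, beside 49.3% of all probe sets and 2105 of the 3388 probe sets of similar level. No member or other probe set was called by limma in either direction (0% and 0%). A missed threshold is no evidence of equal action. At an unadjusted p under 0.05, 6 members were lower in MV (AT5G11720, PGIP2, CESA2, TMT2, AT3G27950 and ADS2), beside 0.998%, and 1 was higher (MLP-300B), beside 0.972%. With the replicate block 34 were lower at that level, beside 2.15%. All MV arrays lay below all IC arrays in 21 members, beside 3.16%. The largest of the named differences was that of AT3G27950, of the GDSL lipase family, at -0.67 (95% interval -1.32 to -0.02, adjusted p = 0.9998 by limma). That of ADS2 was -0.33 (-0.57 to -0.09).

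The RB arrays were also set against the control arrays for MV and IC, which belong to another set of cultures. The RB values are those that chose the members, so the counts that follow are a description and no independent check. RB lay below this control with a median difference of -1.17, in 216 of 237 members beside 41.3% of all probe sets. All RB arrays lay below all of these control arrays in 193 members, beside 16% of all probe sets. In 6 members (SAG29, AT5G51490, PHT1;3, AT4G22610, MLP-300B and AT2G19970) all RB arrays lay above them, beside 18.7% of all probe sets. AT2G19970, of the CAP protein family, read 5.87, 6.91 and 5.25 in that control, 8.88, 8.30 and 8.70 in its own control and 7.95, 7.50 and 7.87 under RB. Its place relative to control therefore depended on the set. Between the controls of both sets the members differed by -2.35 to 2.68 with a median of -0.18. PARVUS lay lowest against the second control, at -3.52, since it read 8.20, 7.17 and 7.76 there and 5.34, 6.07 and 4.65 in its own control.

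Most members had a high level before treatment. In the control of MV and IC, which the rule did not use, their median was 8.53 against 5.08 for all probe sets. This is the 88.0 percentile of all probe sets (quartiles 78.5 and 93.3), whereas named genes in general had a median at the 48.0 percentile. The 41 genes lower under both RB and HP also lay high, with a median at the 80.9 percentile, and the difference from the members was not tested. A limit of 0.8 on the difference leaves little room for genes near the lowest signals. Of the 237 members, 229 lay above the median of all probe sets and 97 (40.9%) in the top 10%. The lowest was PAP20, a purple acid phosphatase, at 3.01, 3.16 and 3.11.

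A subset varied between untreated cultures. Over the 3 control arrays for MV and IC, 26 members (10.97%) spanned more than 1 on the log2 scale, beside 4.39% of all probe sets, and the median span was 0.448 against 0.285. The members also had a higher level, with a median of 8.53 against 5.08. Probe sets of similar level were not compared for span, so the wider span is not read as particular to the members. In 16 of the 26, array 1 was highest and array 2 lowest. Of the 26, 18 kept the order of their control arrays in MV and 21 in IC. How often other probe sets with a span above 1 kept their order was not counted. MC9 had the widest span, 9.05, 6.01 and 7.82 in the control, 8.97, 5.51 and 7.35 under MV, and 8.76, 5.57 and 7.95 under IC. RNS3 read 10.99, 8.19 and 9.79 in the control, 10.96, 8.35 and 9.03 under MV, and 10.54, 8.10 and 9.79 under IC. CESA4, IRX12, PARVUS, XCP2 and PGSIP3 were among the 26 as well.

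The 6 xylem genes with a named probe set, whose differences under RB ran from -2.02 to -0.84, all varied between untreated cultures. CEP1, a cysteine protease of dying cells, gave the lowest of these. It varied over its own control arrays, at 7.71, 5.92 and 8.35, and read lower in the second control, at 4.06, 4.60 and 4.51. The part of the share of xylem-like cells in the RB differences was not tested.

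**Figure D5:**
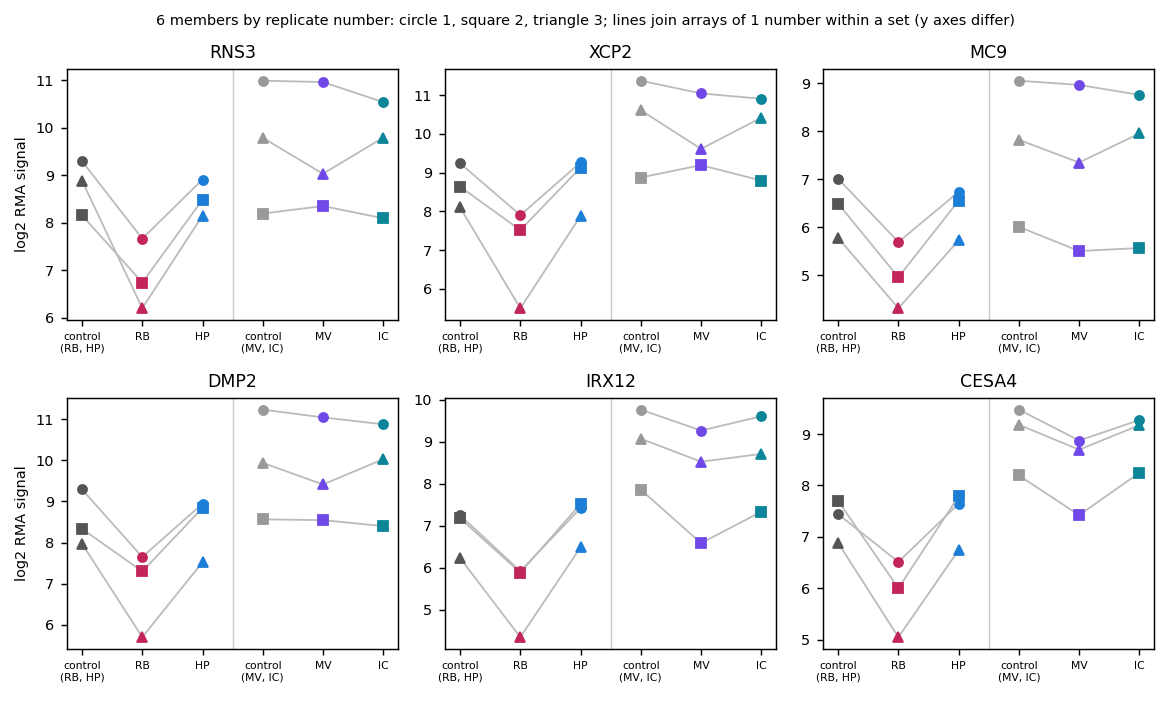
Log2 signal of RNS3, XCP2, MC9, DMP2, IRX12 and CESA4 by group, with circles, squares and triangles for arrays 1, 2 and 3 and lines joining arrays of 1 number within a set; y axes differ. Each RB symbol lies below the control symbol of its number, as the rule required. On the right arrays 1, 3 and 2 keep their order from high to low in the control, MV and IC for the genes shown.

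Some members were neighbours in the genome. By the order of genes in RefSeq, 9 pairs of adjacent genes were both members, holding 17 genes. TMT1 and XCP2 were 1 such pair, at -1.24 and -1.69 under RB. SS3, AT1G74010 and SS2, annotated as strictosidine synthase or calcium-dependent phosphotriesterase proteins, stood in a row at -0.85, -1.27 and -0.95. PGIP1 and PGIP2, a tandem pair of the same family, differed by -1.05 and -1.22, and ENODL13, an early nodulin-like protein, and the nonaspanin AT5G25100 by -1.14 and -1.17. Whether probe sets of such tandem genes detect each other's transcripts was not tested.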

How the data were processed

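Total RNA of 18 ACSC cultures was hybridized to ATH1 arrays. The deposited values are log2 signals that the authors obtained by RMA with quantile normalization, and the submitters' notes list the tools affy and RMA with no version. Whether 1 normalization run covered every array is not given in the sources used here. Reading depth does not apply, and the number of arrays limits the precision.

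After 64 control probe sets were left out, 22746 probe sets on all 18 arrays were fitted in R 4.3.3 with limma 3.58.1 (lmFit, eBayes, 6 groups, 12 residual and 3.37 prior degrees of freedom). p-values were adjusted over all 22746 by the method of Benjamini and Hochberg, with a threshold of 0.05 and 95% intervals. Root mean square deviations within a group were larger in the RB and HP control (0.302 to 0.358) than in the MV and IC control (0.192 to 0.238). Replicates are biological by their titles.

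Titles of control arrays name the numbers of the treated arrays they serve, so a fit with a replicate block (8 residual and 4.63 prior degrees of freedom) was made as well. Deviations from group means correlated across probe sets between same-numbered arrays at 0.000948 to 0.449 for control and RB, 0.483 to 0.636 for control and HP, 0.231 to 0.516 for RB and HP, -0.333 to 0.634 for control and MV, 0.216 to 0.543 for control and IC, and 0.158 to 0.584 for MV and IC. The lowest value was that of array 3 in each pairing of a control with a dye.

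Gene names came from the platform's annotation (13367 probe sets with 1 nuclear locus) and from the study's tables (857). Neighbours were taken from RefSeq, and all 237 members had a place there. Sequences were not analysed here. The authors' own fold changes and p-values were not used. The members and the gene lists were chosen with earlier results of these data known, and the annotation groups after the values were known. Named were the 12 lowest members under RB, up to 4 in each list and 3 in each family with the lowest values, those nearest to the thresholds, the 3 smallest p-values under MV, IC and MV against IC, those with the widest spread under RB or HP and those highest under HP. Other genes were chosen after their values were seen. Plots used matplotlib 3.10.9 in Python 3.11.15. The tests were tried on simulated data. Alternatives were normalization, thresholds, the naming source, the control, the replicate block, a filter on low signals and leaving out single arrays.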

Additional observations from a re-analysis of the deposited data

How the results depend on the processing

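The number of members followed the thresholds. It was 110 with a limit of -1 under RB, 461 with -0.6 and 123 with names from the platform's annotation alone. Leaving out 1 array at a time gave 221 to 344 genes, of which 172 to 234 were among the 237. Repeated quantile normalization gave 264 genes (213 shared), subtraction of each array's median 315 (211 shared), and the control of MV and IC in place of the other control 279 (94 shared). With pairs of the same number in place of the limit on overlap, 300 genes qualified.

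The median difference of the members was -1.17 under RB and -0.22 under HP against the control of MV and IC. It stayed between -1.04 and -0.92 under RB without any single array, and was -1.01 and -1.09 after the normalizations named above. Without 1 array the median under HP ran from -0.12 to 0.02 and that under IC from -0.07 to 0.03, so their sign depended on single arrays, and under MV from -0.30 to -0.13. Repeated quantile normalization gave -0.15 under MV. Counts of calls under MV, under IC and between them were 0 in every alternative run.

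The replicate block raised the calls under RB in most gene lists. Lower calls rose from 8 to 13 of 13 named genes for cellulose synthesis and from 0 to 4 of 5 for laccases. They rose from 0 to 2 of 3 for monolignol synthesis, 0 to 4 of 7 for xylan synthesis and 1 to 6 of 6 for xylem cell death. For plasma membrane proton pumps they rose from 2 to 4 of 4 and for vacuolar proton pumps from 3 to 5 of 5. For auxin they rose from 2 to 5 of 5, and for sugar and nutrient transporters from 3 to 9 of 10. All 7 calcium pumps were called with the block, 6 lower and 1 higher, against 3 lower and 1 higher without it. Smaller rises were from 8 to 10 of 12 for nonaspanins and from 9 to 11 of 16 for ER translocation and glycosylation. Of all probe sets, 1.52% were called lower without the block and 3.69% with it. Most genes of these lists were named because the study had called them, and the RB arrays chose the members, so these counts are no test of the lists. The block changed no call under MV or IC. Of 2560 alternative values of 80 named members, 5 moved by more than the replicate SD, and all 640 under RB stayed below 0, from -2.31 to -0.49. Leaving out single arrays could not change that sign, because every RB array of a member lay below every control array by the rule. Sequence features of the members were not analysed here. Groups of 3 arrays are too small for a test of outlying samples.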
